A study of Mus musculus with 96 samples.

Results

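The genes that encode the subunits of the mitochondrial respiratory chain and of the ATP synthase were followed in forebrain, cerebellum, liver and kidney of control and sleep-deprived mice. Members were taken by name from the GENCODE M21 annotation, as protein_coding genes whose symbol begins with Nduf and a subunit letter and number, Sdha to Sdhd, Uqcr, Cox4 to Cox8 with a subunit letter, Atp5, or a mitochondrial Nd, Co, Atp or Cytb name. Of the 54833 features counted in the series, 95 were members, 82 of them encoded in the nucleus and 13 in mitochondrial DNA. By complex the nuclear members were 37 of complex I, 4 of complex II, 8 of complex III, 16 of complex IV and 17 of the ATP synthase.

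All animals were male mice of the strain C57BL/6 with the genotype WT, aged 6 to 8 weeks and kept in constant darkness at sampling. Sleep-deprived mice (SD) had spent 10 h of their resting phase in a slowly turning drum with food and water, and control mice (CON) were left undisturbed. Total RNA was sequenced with the strand kept and ribosomal RNA depleted, in 96 libraries. They covered 6 circadian times (CT), 4 h apart and beginning at CT4, and each of the 48 groups of tissue, condition and time held 2 replicates. The study describes the 2 replicates of a group as biological, and whether the 4 tissues of a time came from the same mice is not given in the sources used here.

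The respiratory chain passes electrons from NADH, through complex I, or from succinate, through complex II, to complex III and then, through cytochrome c and complex IV, to oxygen. Complexes I, III and IV pump protons across the inner mitochondrial membrane as they do so, and the ATP synthase uses the returning protons to make ATP. Complexes I, III, IV and the ATP synthase are built from subunits of both genomes, so that nuclear and mitochondrial genes have to be expressed side by side, while complex II is encoded in the nucleus alone. Tubule cells of the kidney are known for their many mitochondria and for the ATP they spend on transport.

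Libraries held 24.8 to 58.5 M counts, and levels are given as CPM, the counts of a gene per M counts of its library. Each tissue carried its own markers: hepatocyte genes such as Alb summed to 73261 to 99741 CPM in the 12 CON liver libraries and to at most 139 CPM in those of the other tissues, and genes of kidney tubule and podocyte to 8868 to 10470 CPM in kidney and at most 2.39 CPM elsewhere. Cbln3 was under 1 CPM in cerebellum, where the other 5 cerebellum markers were found, and all 6 forebrain markers were found in forebrain. The cerebellum CON library of CT8 replicate 1 stood apart, with a correlation of 0.922 to the median of its tissue against at least 0.984 for every other library, and results that rest on it are given with and without it. The characteristics listed for 20 of 24 kidney libraries give another condition or time than their titles. Groups followed the titles, and every kidney result by condition or time below depends on that choice.

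The members were first sorted by how much of them the files hold, because a gene listed at 0 need not be silent. In all 96 libraries together 16 members had no count. They were 11 of the 13 mitochondrial members (mt-Atp6, mt-Atp8, mt-Co1, mt-Co2, mt-Co3, mt-Cytb, mt-Nd1, mt-Nd2, mt-Nd3, mt-Nd4 and mt-Nd4l) and 5 nuclear ones (Ndufs8, Ndufv2, Cox8a, Cox8b and Atp5d). A further 22 nuclear members stayed under 5 CPM in the median of every tissue, a limit chosen after the values were seen, and 57 were counted above it. These 57, called the counted members here, were 28 of complex I, all 4 of complex II, 3 of complex III (Uqcrc2, Uqcrfs1 and Uqcrh), 5 of complex IV, 15 of the ATP synthase, and mt-Nd5 and mt-Nd6. Among all 21734 protein_coding genes 2583 had no count and 8752 stayed under the same limit.

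Genes at or near 0 included some that cells use widely. Rplp0, a ribosomal protein, had 78 counts in the 96 libraries together, Cycs, which encodes cytochrome c, had medians of 0.327 to 0.951 CPM, and the mitochondrial ribosomal RNA gene mt-Rnr1 had none, while Cox4i1, a complex IV subunit that the naming rule leaves out, had CON medians of 138 to 514 CPM. The authors kept only reads of the highest mapping quality. Of the 11 mitochondrial members at 0, 8 shared stretches of 100 bases with other annotated transcripts, 6 of them over more than 50% of their length, and 7 overlapped a gene on the same strand. The 2 counted mitochondrial members shared none, but neither did the 5 nuclear members at 0, and 19 of the 55 counted nuclear members did. The part of shared sequence in the missing counts was not tested, and the 38 members at or near 0 are read here as not measured. The tests kept genes by their counts over the groups of a tissue, so 71 to 76 members entered them and not all 95.

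Next, levels were compared between genes per length, as FPKM, counts per M counts of the library and per kb of merged exons. In the CON libraries mt-Nd6 stood highest of the counted members in every tissue. This gene, the only protein gene on the light strand of mitochondrial DNA (chrM, 13552 to 14070 on the minus strand, GRCm38), encodes a complex I subunit. Its FPKM was 2413, 2856 and 3300 in forebrain (lowest, median and highest of 12 libraries), 1609, 1926 and 6884 in cerebellum, 2564, 3483 and 4060 in liver and 4276, 5313 and 6010 in kidney. Kidney lay above the other tissues without overlap, except for the single cerebellum library named above, which held the highest value of all, 6884.

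The neighbouring mt-Nd5 (chrM, 11742 to 13565 on the plus strand), which encodes another complex I subunit, had lower values and a wider spread. Its FPKM in CON was 193.6, 352 and 509.9 in forebrain, 177, 237 and 814 in cerebellum, 86.7, 378 and 578 in liver and 852, 949 and 1201 in kidney. All 12 kidney libraries lay above all libraries of the other tissues, and forebrain, cerebellum and liver overlapped. The count of mt-Nd5 relative to mt-Nd6 had a CON median of 0.421 in forebrain, 0.424 in cerebellum, 0.351 in liver and 0.676 in kidney.

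Both mitochondrial medians lay above that of every counted nuclear member in each tissue. Among the nuclear members the highest belonged to the ATP synthase head. Atp5a1, the alpha subunit, had CON median FPKM of 169 in forebrain, 151 in cerebellum, 331 in liver and 648 in kidney. Atp5l, a small membrane subunit, was the lowest of the 15 counted ATP synthase members in all 4 tissues, with medians of 0.771, 2.58, 0.436 and 0.658. In complex I the highest was Ndufb9, with 63.4, 60.9, 111 and 178 FPKM in the same order of tissues, and the lowest were Ndufb8 in both brain tissues (1.28 and 0.962) and Ndufa5 in liver and kidney (0.911 and 2.41). Counted members of 1 complex, here complex I and the ATP synthase, therefore spanned more than an order of magnitude in counts per length. A low value can stem from little RNA or from reads lost in the mapping filter, which was not tested.

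Complexes II and III showed a narrower span. In complex II, which is also succinate dehydrogenase of the citric acid cycle, the flavoprotein gene Sdha had medians of 60.4 FPKM in forebrain, 49.1 in cerebellum and 179 in kidney and led there, while the membrane anchor Sdhd led in liver with 132. The other membrane anchor, Sdhc, was the lowest of the 4 in each tissue, with 14.1, 18.7, 39.9 and 81.2. In complex III the Rieske iron-sulfur subunit Uqcrfs1 led with 52.0, 48.9, 155 and 260.4, and Uqcrh was the lowest of the 3 counted members with 35.2, 32.6, 64.1 and 118. Median FPKM over the counted members in kidney was 50.2 for complex I, 144 for complex II, 145 for complex III, 85.8 for complex IV and 65.3 for the ATP synthase.

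Several subunits exist in forms that differ between tissues, and the forms stood apart in these libraries. Cox7a1, the form known from heart and skeletal muscle, had CON medians of 1.08 FPKM in forebrain, 3.34 in cerebellum, 1.31 in liver and 18.6 in kidney, and the form found in most tissues, Cox7a2, had 81.5, 86.0, 142 and 251. Cox7a2l, a related protein that takes part in joining complexes into supercomplexes, varied least across tissues of all counted members, with 59.5, 62.3, 67.2 and 85.8. The 12 kidney libraries were higher than all others for each of these 3 genes.

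Ndufa4 and Ndufa4l2 are counted under complex I here because the rule goes by name, although Ndufa4 is known as a subunit found with complex IV. Ndufa4 had medians of 37.1, 32.2, 72.2 and 137 FPKM in forebrain, cerebellum, liver and kidney. Its relative Ndufa4l2, known as a gene induced in low oxygen, had 1.47, 1.81, 11.05 and 12.7, and its kidney and liver libraries overlapped. The 3 genes of the ATP synthase c subunit encode the same mature protein, the rotor ring through which protons pass, and Atp5g3 led in each tissue with 35.1, 37.7, 88.6 and 162 FPKM against 12.7, 11.7, 19.2 and 37.5 for Atp5g2 and 9.56, 8.77, 14.4 and 25.9 for Atp5g1.

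**Figure D1:**
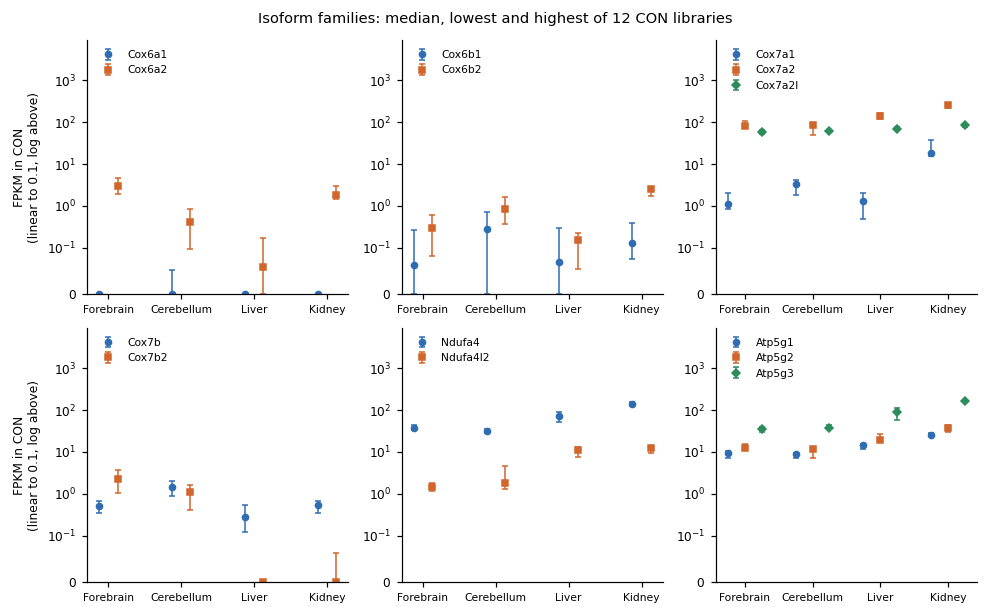
Level in FPKM of 6 subunit families in the CON libraries of each tissue, on an axis that is linear up to 0.1 and logarithmic above it. Points are the medians of 12 libraries and bars run from the lowest to the highest. Cox7a1 lay below Cox7a2 in every tissue and was highest in kidney (median 18.6), and Atp5g3 lay above Atp5g2 and Atp5g1 in every tissue.

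The remaining families could be followed only in part. Cox6a2 (muscle form) had medians of 2.92, 0.408, 0.0597 and 1.84 FPKM, while its partner Cox6a1 had 4 counts in all libraries together. Cox6b2, known from testis, had 0.299, 0.838, 0.151 and 2.54 and Cox6b1 at most 0.274, and Cox7b2, also known from testis, had 2.26 and 1.12 in forebrain and cerebellum and had a median of 0 in liver and kidney, beside 0.278 to 1.41 for Cox7b. Cox8a and Cox8b were listed at 0 and Cox8c had 1 count, so a comparison between these forms was not possible.

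To ask how the whole set was arranged across tissues, the 4 CON medians of each counted member were put in order. Kidney was highest for 55 of the 57, and for 53 of these all 12 kidney libraries lay above all libraries of the next tissue. The share of all features ordered in this way was not counted, so these counts describe the members alone. The 2 exceptions to that separation were Ndufa4l2 and Ndufc2, where liver overlapped with kidney. Cerebellum was highest for the other two, Ndufa5 and Atp5l, again without overlap. Below the top the order was less firm: liver was second for 48 of the 57, the middle 2 tissues were separate for 33, and the lowest 2 for 4. The fold between the highest and the lowest tissue had a median of 3.61 over the 57 members and ranged from 1.44 for Cox7a2l to 17.2 for Cox7a1. The 5 CPM limit needs only 1 tissue, which favours a wide fold: Ndufb8 and Cox7a1 reached it in kidney alone, Ndufa5 and Atp5l in cerebellum alone, and Ndufa4l2 in 2 tissues. For the 52 that reached it in all 4 tissues, kidney was highest for 52 and the fold was 1.44 to 7.52 (median 3.30). Bulk tissue cannot tell fewer cells of a type from less RNA per cell, here or below.

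**Figure D2:**
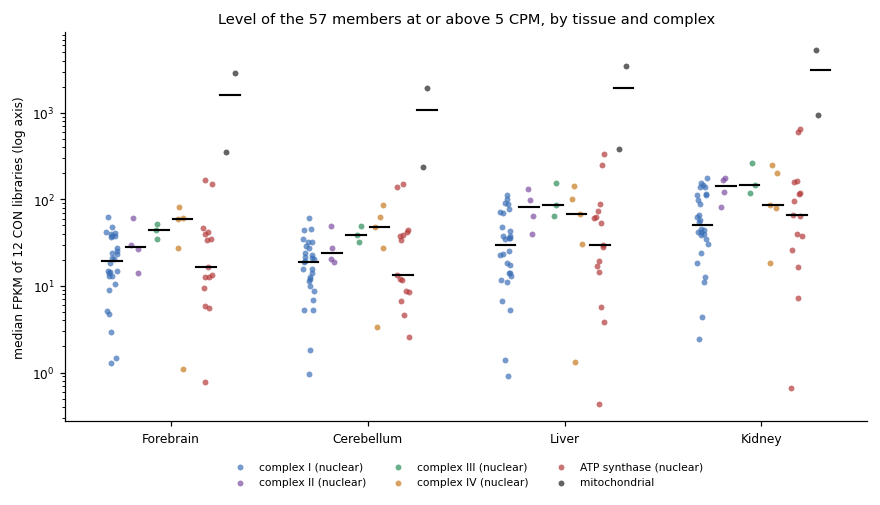
Median level in FPKM, on a log axis, of each of the 57 counted members in the CON libraries of forebrain, cerebellum, liver and kidney, grouped by complex, with 1 point per member and a bar at the median of each complex. Kidney was highest for 55 of the 57 members and mt-Nd6 and mt-Nd5 lay above every counted nuclear member in every tissue.

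Summed, the 55 counted nuclear members took 0.341% to 0.411% of the counts in the 12 CON forebrain libraries (median 0.372), 0.248% to 0.380% in cerebellum (0.355), 0.542% to 0.692% in liver (0.659) and 1.20% to 1.34% in kidney (1.27). The SD libraries had medians of 0.370%, 0.359%, 0.683% and 1.27%. The order kidney, liver and then both brain tissues was thus the same in the SD libraries, which are separate libraries. The lowest cerebellum value was that of the library that stood apart, whose other replicate had 0.380%. Relative to the 2 counted mitochondrial members, the summed count of the counted nuclear members had a CON median of 0.82 on the log2 scale in forebrain, 1.35 in cerebellum, 1.32 in liver and 1.53 in kidney. The ranges of these log2 ratios overlapped between all 4 tissues. By library totals in CON, the kidney thus stood apart in the level of both sets more than in their ratio. For the 2 mitochondrial members this leaves aside the cerebellum library that stood apart. With the scaling of the test below, mt-Nd6 was not called between liver and kidney.

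The tissues were then compared in the quasi-likelihood F-test of edgeR, fitted to all 48 CON libraries with TMM scaling and time as a factor, where a gene was called at a Benjamini-Hochberg adjusted p under 0.05 over all features and an absolute log2 fold change over 1. Of the 76 members tested, 64 were called between cerebellum and kidney (10 higher and 54 lower in cerebellum), against 65.4% of all features, and 56 between forebrain and kidney (1 higher, 55 lower), against 60.5%. Cerebellum and liver differed in 58 (13 higher in cerebellum, 45 lower; all features 67.8%) and forebrain and liver in 41 (3 higher in forebrain, 38 lower; 64.4%). These calls were 84.2%, 73.7%, 76.3% and 53.9% of the members tested, above the share of all features in the first 3 contrasts and below it between forebrain and liver. The direction was more one-sided among the members than among all features, of which 30.7% were lower in cerebellum than in kidney and 34.8% higher. The median member lay 1.79 lower in cerebellum than in kidney on the log2 scale, while the median feature lay 0.10 higher, and for forebrain against kidney the medians were -1.56 and 0.12.

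Genes of each direction can be named. Between cerebellum and kidney the largest falls in cerebellum were Atp5e (log2 fold change -3.19 ± 0.12, SE), the epsilon subunit of the ATP synthase, Cox7a1 (-2.91 ± 0.17) and Sdhd (-2.83 ± 0.08). Between forebrain and kidney they were Cox7a1 (-4.15), Cox6b2 (-3.17) and Ndufa4l2 (-3.15), and against liver Ndufa4l2 (-3.47 in forebrain, -3.13 in cerebellum), Sdhd (-2.73 and -3.00) and Uqcrfs1 (-2.11 and -2.41). The calls in the other direction were mostly in cerebellum. Among them were Ndufa5 (1.69 against kidney, 2.18 against liver) and Atp5l (1.72 and 1.78), the only counted members of the 13 and 10, and the others, such as Ndufs5 (1.82 and 1.77), were under the 5 CPM limit. Cox7b2 was also called there, with medians of 0 in liver and kidney, so that no fold is given, and in forebrain Cox6a2 was higher than in liver (4.82).

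Liver and kidney differed less, and so did the brain tissues. Of 76 members 7 were called between liver and kidney, all lower in liver, against 39.5% of all features and 23.3% lower. They were led by Cox6a2 (-4.32 ± 0.34, SE), Cox6b2 (-3.58 ± 0.23) and Cox7a1 (-3.52 ± 0.18), followed by the complex I genes Ndufb8 (-1.15 ± 0.13), mt-Nd5 (-1.15 ± 0.20, adjusted p = 1.82e-06) and Ndufb4 (-1.14 ± 0.11). The second mitochondrial gene, mt-Nd6, was not called there (-0.13 ± 0.13, adjusted p = 0.378). Forebrain and cerebellum differed in 16 (2 higher in forebrain, 14 lower; 34.5%), among them Cox6a2 (2.89), Atp5l (-1.65), Ndufb2 (-1.59), Cox6b1 (-1.59) and Uqcrc1 (-1.54), of which all but Atp5l were under the 5 CPM limit.

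These contrasts depend on scaling, and those with liver moved most. With library totals in place of TMM factors, the median of all features between liver and kidney moved from -0.05 to -0.55 and that of the members from -0.42 to -0.94, and 30 members were called instead of 7, all lower in liver (39.5% of the members, 44.0% of all features). Between forebrain and liver the medians moved from 0.26 and -0.98 to 0.81 and -0.43, with 16 called (6 higher, 10 lower; 21.1% beside 66.4% of all features). Between cerebellum and liver 36 were called (19 higher, 17 lower; 47.4% beside 71.4%) instead of 58, so that the direction was then no longer one-sided. The fitted kidney level was above all 3 other tissues for 51 of the 57 counted members with TMM factors, for 55 with library totals and for 43 in the SD libraries with TMM factors. Liver was above both brain tissues for 53, 48 and 54. The fitted order was not counted over all features. In the SD libraries the 6 contrasts called 8 to 62 members (10.5% to 81.6% of those tested), beside 33.4% to 68.8% of all features. Of the 242 CON calls of members 234 were made again, and the repeat over all features was not counted.

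The effect of sleep deprivation was examined within each tissue, averaged over the 6 times. No member was called at an adjusted p under 0.05 in forebrain (75 tested, 4 at an unadjusted p under 0.05; 0.0303% of all features called), in cerebellum (76 tested, 2; 0.0%) or in kidney (75 tested, 4; 2.3%, with 2.12% lower). In liver 34 of 71 members were called, and all 34 rose under SD, where 18.2% of all features were called, 9.42% higher and 8.8% lower. Of the complexes, 16 of 33 members rose in complex I, 4 of 4 in complex II, 3 of 8 in complex III, 2 of 8 in complex IV and 9 of 16 in the ATP synthase, and neither of the 2 mitochondrial genes was called. The median over the 71 members was 0.18 on the log2 scale and that over all features 0.01.

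All 34 belonged to the 55 counted nuclear members. Their rises were small and alike, from 1.12-fold to 1.21-fold (log2 0.16 to 0.28, median 0.22). The SD level was above the CON level at 6 of 6 times for 28 of them and at 5 of 6 for the other 6, while the ranges of the 12 SD and 12 CON libraries overlapped for every one. Leaving out each of the 24 libraries in turn, 30 of the 34 were called every time. Counted nuclear members lay above 0 for 54 of 55 in liver, against 7 in forebrain, 39 in cerebellum and 28 in kidney, with medians of 0.20, -0.02, 0.03 and 0.00 and median SE of 0.058, 0.045, 0.065 and 0.042.

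**Figure D3:**
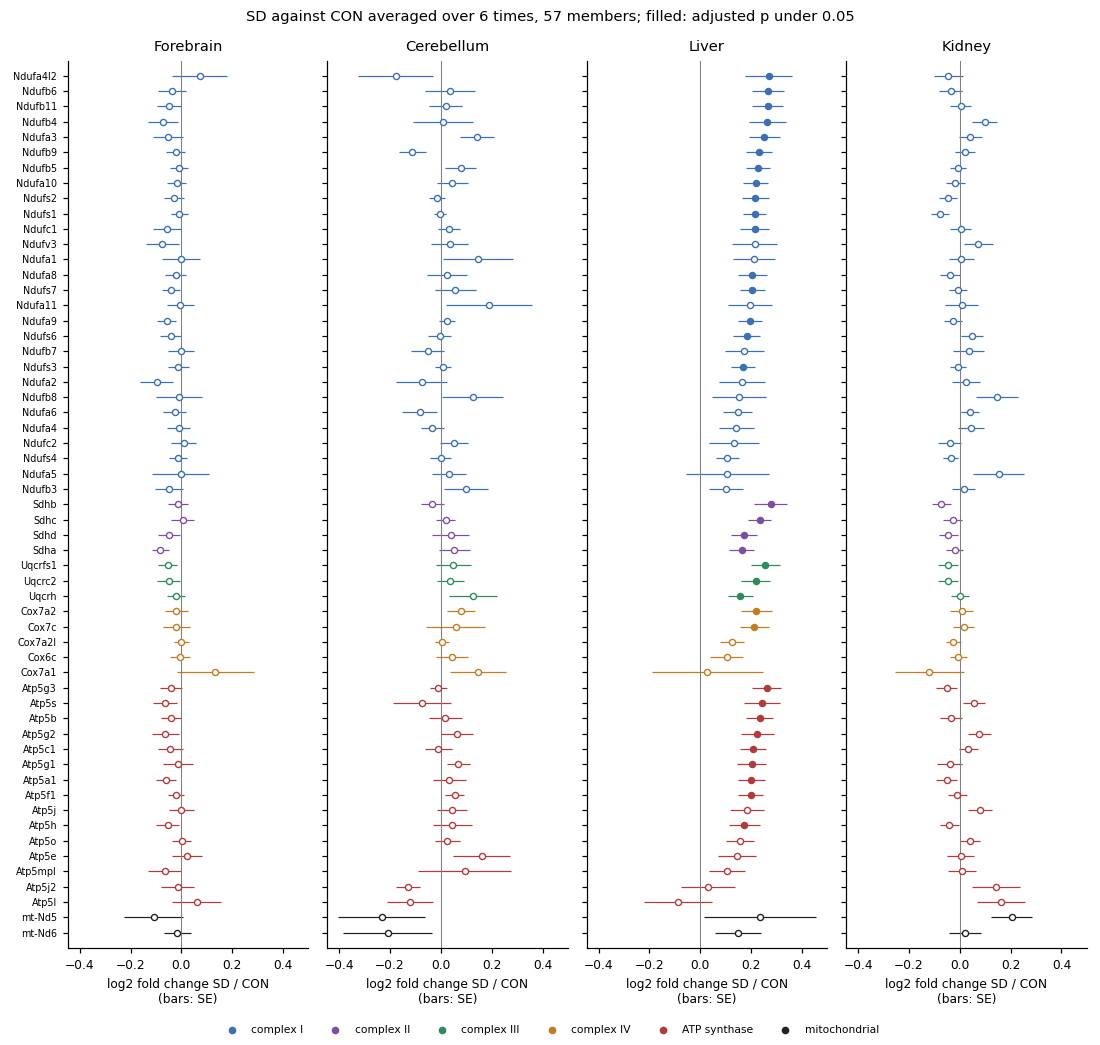
Log2 fold change of SD against CON, averaged over 6 times, for each of the 57 counted members in the 4 tissues, coloured by complex. Points are the fitted values, bars their SE, and members called at an adjusted p under 0.05 are filled. The 34 filled points all lie in the liver and above 0, and no member is filled in forebrain, cerebellum or kidney.

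The largest rise was that of Sdhb, the iron-sulfur subunit of succinate dehydrogenase. Its TMM-scaled CPM in liver was 96.1, 138 and 168 in CON (lowest, median and highest of 12) and 104, 166 and 229 in SD, a log2 fold change of 0.28 ± 0.065 (SE, adjusted p = 0.0042). The SD range began and ended higher than the CON range, with most of both ranges shared. Sdhc, Sdha and Sdhd, the other subunits of this complex, rose by 0.23 ± 0.05, 0.16 ± 0.05 and 0.17 ± 0.05.

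The complex I members named here were among the 10 largest rises in liver, and other complex I members were called too. Ndufb6 had TMM-scaled CPM of 31.8, 59.6 and 68.8 in CON and 39.6, 67.9 and 86.3 in SD (log2 fold change 0.27 ± 0.064, adjusted p = 0.0051). Ndufb11 had 56.9, 88.0 and 107 in CON and 59.8, 103 and 116 in SD (0.27 ± 0.061, adjusted p = 0.0040). For both, the lowest, the median and the highest value were each higher in SD, and the ranges overlapped. Ndufb4 (0.26 ± 0.074, adjusted p = 0.014) and Ndufa3 (0.25 ± 0.062, adjusted p = 0.0060) were also among the 10 largest rises, and so was Ndufa4l2 (8.47, 11.3 and 14.4 CPM in CON, 8.15, 14.0 and 15.6 in SD, 0.27 ± 0.092, adjusted p = 0.043), which was called in 8 of 24 fits with 1 library left out. Ndufb4 shares 33.4% and Ndufb6 28.2% of their 100-base stretches with another annotated transcript.

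In complex III the rise was led by Uqcrfs1, with TMM-scaled CPM of 144, 207 and 240.1 in CON and 151, 241 and 312 in SD (0.26 ± 0.058, adjusted p = 0.0033), followed by Uqcrc2 (0.22 ± 0.06) and Uqcrh (0.16 ± 0.05). In complex IV Cox7a2 (0.22 ± 0.06, adjusted p = 0.013) and Cox7c (0.21 ± 0.06, adjusted p = 0.010) rose. The 3 counted complex III members thus all rose, and Cox7a1 of complex IV did not pass the test (0.03 ± 0.22, adjusted p = 0.95).

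The ATP synthase contributed the most abundant of the genes. Atp5b, the catalytic beta subunit, had TMM-scaled CPM of 748, 1027 and 1163 in CON and 801, 1196 and 1384 in SD (0.23 ± 0.054, adjusted p = 0.0036). Atp5g3 had 106, 188 and 249 in CON and 130, 223 and 264 in SD (0.26 ± 0.056, adjusted p = 0.0023), and the other genes of the c subunit, Atp5g1 and Atp5g2, were also called. Atp5s, a coupling factor with far lower counts, had 6.35, 7.21 and 9.35 in CON and 7.67, 8.42 and 10.8 in SD (0.24 ± 0.071, adjusted p = 0.020). Atp5l was the 1 counted nuclear member below 0 (-0.09 ± 0.13, adjusted p = 0.71), at CON values of 1.86, 2.71 and 4.75.

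The mitochondrial genes had similar values and larger errors. Liver mt-Nd5 ranged over 151, 639.8 and 1002 TMM-scaled CPM in CON and 352, 578 and 969 in SD (0.23 ± 0.22, adjusted p = 0.52), and mt-Nd6 over 1270, 1670 and 2077 in CON and 1402, 1764 and 2396 in SD (0.15 ± 0.09, adjusted p = 0.28). Neither passed the test, and the spread of mt-Nd5 within CON was wider than that of any nuclear member named above.

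The rise in liver moved with the scaling of the libraries. The log2 TMM factors of CON averaged 0.07 ± 0.09 (mean ± SD, n = 12) and those of the sleep-deprived mice -0.07 ± 0.10, and with library totals in their place the median of all 19708 features fell by 0.13 and that of the members was 0.04. In that fit 4 of the 34 stayed called, Sdhb, Ndufb11, Atp5g3 and Sdhc, which is 5.63% of the members tested beside 20.9% of all features, and the log2 fold changes of the 34 were 0.02 to 0.14 (median 0.08), all above 0. The members' rise was therefore a rise relative to the other genes of the liver libraries, and in share of all counts the counted nuclear members had a median of 0.659% in CON and 0.683% in SD, with overlapping ranges.

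Other values moved with it. All 6 hepatocyte markers rose in the same fit, by 0.24 (Alb) to 0.33 (Cps1), and their sum was 73261, 80447 and 99741 CPM in control and 76428, 90812 and 96839 in sleep-deprived liver. All 5 leukocyte markers fell, by 0.38 (Lyz2) to 1.28 (Cd74), and their sums were 379, 477 and 946 CPM in control but 172, 292 and 387 in sleep-deprived liver. That fall was not particular to the liver. In kidney Cd74 (-1.29), Ptprc (-0.56) and Lyz2 (-0.56) were called lower, and Cd3e and Cd79a were not called. The kidney sums had medians of 396 CPM in control and 214 in sleep-deprived mice. The balance of long against short genes was 0.82, 0.90 and 1.14 on the log2 scale in CON and 0.80, 0.85 and 1.20 in SD, and with that balance as a covariate 23 of the 34 stayed called, not among them Ndufa4l2 (adjusted p = 0.19). These 23 were 32.4% of the members tested, beside 15.1% of all features. The part of these markers and of this balance in the result was not tested.

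Genes around the complexes were counted from lists chosen with earlier results of these data known, to be read beside the 9.42% of all liver features that were called higher and the 8.8% called lower. In liver 15 of 38 tested assembly factors rose and none fell, led by Lyrm7 (0.34 ± 0.11), which serves the insertion of the Rieske protein into complex III, and Nubpl (0.28 ± 0.07), which serves iron-sulfur clusters of complex I. Of 26 genes for the expression of mitochondrial DNA 9 rose, among them Hsd17b10 (0.39 ± 0.06), a subunit of the mitochondrial RNase P, and the transcription and rRNA methylation factors Tfb2m (0.25 ± 0.06) and Tfb1m (0.21 ± 0.07). Of 12 nuclear regulators 1 rose, the fatty acid receptor Ppara (0.21 ± 0.06), a share close to that of all features. Medians of these lists were 0.14, 0.12 and 0.09 beside 0.01 for all features.

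Carriers and ribosomes gave a mixed picture. Slc25a3, the phosphate carrier, rose by 0.18 ± 0.05, while Slc25a4, an ADP and ATP carrier, fell by 0.24 and the uncoupling protein Ucp2 fell by 0.38, 3 of 9 tested carriers in all. Mitochondrial ribosomal proteins rose for 19 of 66 and fell for 1 (Mrpl18, -0.73), with a median of 0.13. Cytosolic ribosomal proteins, taken as other short and abundant genes, rose for 19 of 89, with a median of 0.10, and the 1 that fell, Rps6ka1, is a kinase caught by its name. Apart from the cell type markers, no gene of the lists was called in forebrain, cerebellum or kidney.

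Since the 34 members moved together, the sequence before their starts was searched for letters bound by factors known for respiratory genes. RefSeq windows from 250 bases before to 50 after a start (GRCm38.p6) were at hand for 66 of the 82 nuclear members and for 27025 genes in all. The NRF1 letters GCGCANGCG, the site of nuclear respiratory factor 1, stood on either strand in 20 of the 66 (30.3%) and in 7.03% of all genes. They stood in 9 of 25 liver-called members with a window (36%) and in 9 of 30 tested members that were not called (30%), close to each other. The ETS letters CCGGAAG were in 16 of 66 and 9.93% of all, the YY1 letters AANATGGCG in 10 and 2.76%, the ERR letters TCAAGGTCA in 2 and 0.466% and CCAAT in 29 and 41.1%. The letters of clock factors were in 5 (7.58%) and 8.09% for the E-box CACGTG and in 1 (1.52%) and 1.11% for the D-box TTATGTAA. A match is a description of letters and not of binding.

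The 250 bases before the start are shown, 5′ to 3′ on the strand of the gene and with the NRF1 letters of either strand in capitals, for the 4 largest rises among the called members considered, at chr16:37654369-37654618 for Ndufb4, chr15:102671048-102671297 for Atp5g2, chr2:10080433-10080682 for Atp5c1 and chr2:36049339-36049588 for Ndufa8, all on the minus strand of GRCm38.p6. Considered were called members with these letters within the 250 bases, and promoters of 1 chromosome were left out.
Ndufb4: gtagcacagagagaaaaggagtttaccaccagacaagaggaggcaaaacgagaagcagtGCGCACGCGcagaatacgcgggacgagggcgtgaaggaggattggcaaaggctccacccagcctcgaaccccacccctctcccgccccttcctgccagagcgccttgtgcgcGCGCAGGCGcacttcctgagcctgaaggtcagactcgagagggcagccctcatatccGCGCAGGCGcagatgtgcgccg
Atp5g2: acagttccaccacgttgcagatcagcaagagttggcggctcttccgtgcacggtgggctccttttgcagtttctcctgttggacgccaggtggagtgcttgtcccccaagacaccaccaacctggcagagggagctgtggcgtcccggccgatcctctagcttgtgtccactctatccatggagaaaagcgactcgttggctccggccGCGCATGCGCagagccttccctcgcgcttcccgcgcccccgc
Atp5c1: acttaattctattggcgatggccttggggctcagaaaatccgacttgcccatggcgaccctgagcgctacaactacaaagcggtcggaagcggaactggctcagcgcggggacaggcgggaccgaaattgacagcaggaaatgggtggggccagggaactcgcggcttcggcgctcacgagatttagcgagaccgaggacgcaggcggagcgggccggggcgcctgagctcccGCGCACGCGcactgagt
Ndufa8: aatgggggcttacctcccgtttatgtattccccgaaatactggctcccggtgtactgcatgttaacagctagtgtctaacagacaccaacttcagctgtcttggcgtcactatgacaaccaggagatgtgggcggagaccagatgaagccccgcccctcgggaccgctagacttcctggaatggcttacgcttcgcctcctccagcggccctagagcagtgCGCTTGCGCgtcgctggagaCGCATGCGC
Ndufb4 held 3 matches, the nearest ending 13 bases before the start. Atp5g2 held 2 that overlap on opposite strands, 32 bases before the start. Atp5c1 held 1 at 8 bases and Ndufa8 held 2, of which the last reached the start itself.

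To see whether the rise differed between tissues, the difference of the SD effects was tested. It was called, with the liver effect the higher, for 30 of 75 members against forebrain (6.9% of all features called, 4.06% higher in liver), 18 of 74 against kidney (6.49% and 3.76%) and 3 of 76 against cerebellum (2.47% and 0.747%). Median differences over the members were 0.22, 0.15 and 0.15, and those over all features 0.00, -0.02 and 0.00. The 3 comparisons share the liver libraries. With library totals in place of TMM factors the calls were 0, 4 (3 higher and 1 lower in liver) and 0, beside 7.18%, 12.7% and 6.01% of all features. The statement that the liver differs therefore rests on the scaling. Without all libraries of either replicate number most of the calls made with TMM factors were lost. Each group then held 1 library, and the share of all features called was not counted.

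Outside the liver the members with the smallest p are given by value. In forebrain Sdha had a log2 fold change of -0.08 ± 0.03 (adjusted p = 0.77), and Ndufb2 and Ndufa12, both under 1 CPM, had 0.52 ± 0.20 and 0.66 ± 0.26. In cerebellum Atp5j2 had -0.13 ± 0.05, Ndufa3 0.14 ± 0.07 and Ndufb9 -0.11 ± 0.05 (adjusted p = 0.91 for each). In kidney Ndufa7 had 0.22 ± 0.065 (adjusted p = 0.095), mt-Nd5 0.20 ± 0.08 and Ndufs1 -0.08 ± 0.04.

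Next, the effect of sleep deprivation was followed by time of day. In liver the median log2 fold change of the 71 members was 0.09 at CT4, 0.22 at CT8, 0.26 at CT12, 0.25 at CT16, 0.03 at CT20 and 0.28 at CT24, with 48, 64, 59, 59, 41 and 62 members above 0. With 2 libraries per condition no member was called at a single time in liver (0.0% to 0.416% of all features). The SD library of CT16 replicate 1 was the least like the liver median, with a correlation of 0.984, and without it 38 members were called at CT16 (37 higher and Atp5l lower, -1.12 ± 0.28, adjusted p = 0.017), against 12.6% of all features. This alternative was chosen after the data were seen, and the lone SD library was then assumed to vary like the other groups. The nuclear share at CT16 was 0.542% and 0.557% in CON and 0.566% in that library and 0.639% in the other SD library, and the first of these SD values lay near those of CON.

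In the test of the 6 times together, 1 liver member was called, mt-Nd5 (adjusted p = 0.041; all features 3.56%), and 0 with the replicate number as a block. Its TMM-scaled CPM in CON and SD were 346 and 380.2 against 484 and 419.7 at CT4, 827 and 667 against 872 and 451 at CT8, and 612 and 298 against 828 and 969 at CT12. They were 899 and 686 against 672 and 893 at CT16, 1002 and 731 against 422 and 352 at CT20, and 297 and 151 against 471 and 754 at CT24. Both SD libraries were thus below both CON libraries at CT20 and above them at CT4, CT12 and CT24, while the replicates of a group often lay far apart. Leaving out 1 library at a time gave 0 calls in 15 of 24 fits. More members were called without either SD library of CT16, most without replicate 1. Such a fit has 1 library in a group, so these counts are not given.

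In kidney 2 members were called in the joint test, against 0.725% of all features, and both stood out at CT12. Atp5j2, a subunit of the membrane part of the ATP synthase, had TMM-scaled CPM of 99.4 and 115 in the SD libraries of CT12 and 51.1 and 57.6 in CON, and 45.3 to 64.4 in the other 20 kidney libraries (log2 fold change 0.98 ± 0.12, adjusted p = 0.0055 at CT12, where 0.0372% of all features were called). Both SD libraries of CT12 thus lay far above all others. mt-Nd5 had 3739 and 3927 CPM of library totals there, against 2006 and 2191 in CON of CT12 and at most 2191 in any other kidney library (0.87 ± 0.13, adjusted p = 0.018). Its neighbour on the other strand, mt-Nd6, had 3183 and 3502 against 2884 and 2856, so that the ratio of mt-Nd5 to mt-Nd6 was 1.17 and 1.12 in these libraries and 0.583 to 0.790 in the other 22.

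A further 17 members had an unadjusted p under 0.05 at that time and did not pass the adjustment. With the 2 called members these were 25.3% of the members tested, beside 8.28% of all features. The median log2 fold change at CT12 was 0.07 over the members and -0.01 over all features. Of all 19 of 75, 18 were higher in SD, by 0.24 to 0.98, with Ndufa11 (0.55 ± 0.10) and Ndufb7 (0.53 ± 0.10, adjusted p = 0.080 for both) next, and Uqcrc2 lower. Annotated nuclear copies of mitochondrial DNA, 10 pseudogenes of which 4 had counts, summed to 151 and 389.6 CPM in the 2 SD libraries of CT12 and to 41.0 to 99.8 in the other 22, while mt-Rnr2 was within its range (595 and 542 CPM, all kidney libraries 539 to 959). The part of these copies in the result was not tested. Both joint calls were lost without CON CT12 replicate 1 or without SD CT12 replicate 2, and 1 of them in 10 of the other 22 fits with a library left out.

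At CT24 in kidney Cox7a1 was called as lower in SD, with TMM-scaled CPM of 6.99 and 8.93 against 14.9 and 20.5 in CON (-1.16 ± 0.21, adjusted p = 0.028; all features 0.33%, with 0.293% lower). The 2 CON libraries of CT24 were the highest of all 24 kidney libraries, and the 20 libraries of the other times lay between 7.88 and 14.2. At CT4, CT8, CT16 and CT20 no kidney member was called, where 0.00465%, 0.00929%, 0.00465% and 0.0139% of all features were. In cerebellum mt-Nd6 (-1.39 ± 0.36, adjusted p = 0.031) and mt-Nd5 (-1.26 ± 0.37, adjusted p = 0.044) were called as lower in SD at CT8, where 10.3% of all features were called and 9.73% were lower. That result rests on the library that stood apart, which held 1485 CPM of mt-Nd5 and 3573 of mt-Nd6 against 444 and 988 in its other replicate and 458 and 411, and 952 and 921, in SD. Without it no member and no feature was called, and the log2 fold changes were -0.02 ± 0.21 and -0.07 ± 0.12. In forebrain no member was called at any time (0.0% to 2.28% of all features).

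**Figure D4:**
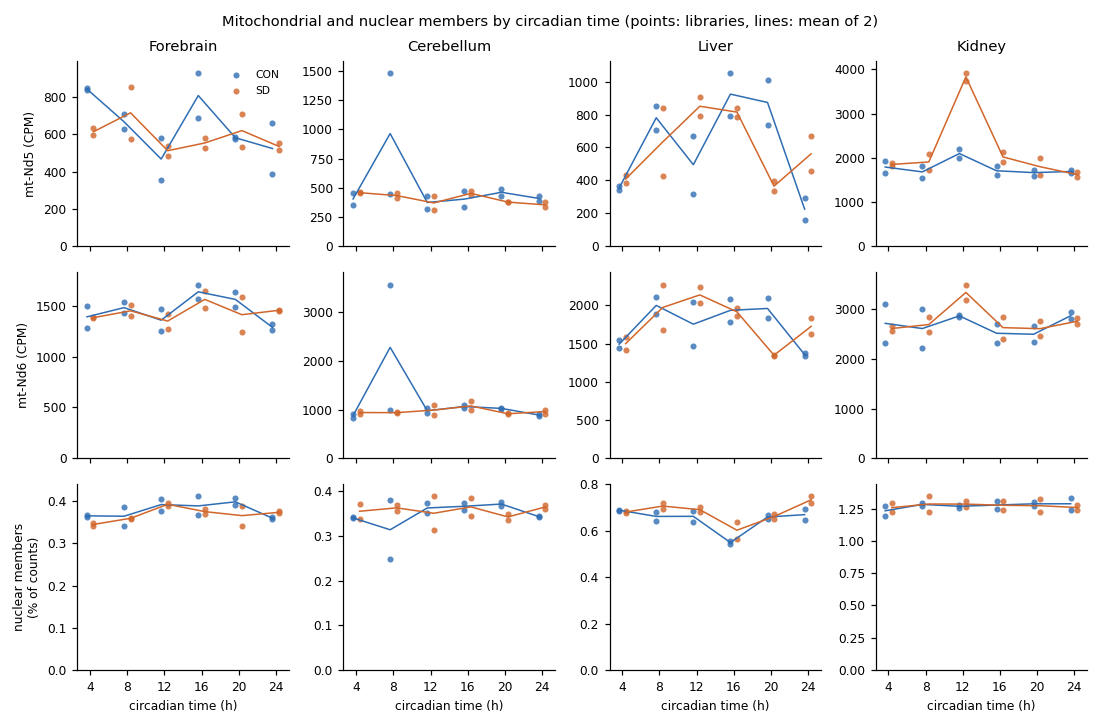
CPM of library totals for mt-Nd5 (top row) and mt-Nd6 (middle row) and the summed share of counts of the counted nuclear members in percent (bottom row) by circadian time in h, with a column for each tissue, 1 point per library and lines through the means of CON and SD. The kidney SD libraries of CT12 (3739 and 3927 CPM of mt-Nd5) and the cerebellum CON library of CT8 replicate 1 (1485 CPM) stand apart from the rest, and the liver nuclear share is lowest at CT16.

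Finally, members were tested for a daily rhythm of 24 h. JTK_CYCLE, a rank test against cosine references, called none in any tissue or condition at an adjusted p under 0.05 (0.0% to 1.76% of all features), and 12 liver members in CON and 9 in SD had an unadjusted p under 0.05. The cosinor test of edgeR, which fits a cosine and a sine to the counts, called 9 of 71 in CON liver (8.79% of all features), 4 of 71 in SD liver (11.8%), 1 of 75 in CON kidney (3.93%) and 0 in SD kidney (1.92%). It called 0 in forebrain (0.0997% of all features in CON, 0.00433% in SD) and 0 in cerebellum (0.0045% and 0.0945%). The members' share was 12.7% in CON liver, above that of all features, and 5.63% in SD liver, below it. At an unadjusted p under 0.05 it was 50.7% against 27.4% of all features in CON, and in SD 29 of 71 members and 5510 of 19708 features were under it. Without a filter on low counts 22 of 75 (29.3%, all features 12.4%) and 19 of 75 (25.3%, 12.7%) were called, and with library totals 4 of 71 in CON (2300 of 19708 features) and 6 of 71 in SD (2955 of 19708), so that the order of members and background depended on these choices.

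The 9 genes of CON liver fell into 3 timings. Ndufc2, a membrane arm subunit of complex I, had the largest amplitude, 0.60 on the log2 scale with a peak at CT23.4 (adjusted p = 0.0047). Its TMM-scaled CPM was 50.9 and 56.4 in the CON libraries of CT16 and 101 and 156 in those of CT24, and 43.4 and 59.1, and 141 and 235, in SD (amplitude 0.79, peak CT24.0, adjusted p = 0.0073). High and low times did not overlap in either condition. Ndufc2 was called in all 12 fits that left out 1 CON library.

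A group of 7 peaked between CT2.35 and CT3.56, Uqcrfs1, Sdhd, Ndufs7, Ndufb6, Atp5g3, Uqcrh and Atp5g1, with amplitudes of 0.24 to 0.38 and adjusted p of 0.021 to 0.049. Atp5g3 was the largest (0.38, adjusted p = 0.021), with 231 and 249 CPM at CT4 and 106 and 124 at CT16 in CON. In SD the same times gave 263 and 264, and 130 and 192. Leaving out either CON library of CT16, or CON CT4 replicate 2, left 1 member called, while 2 were called without CON CT24 replicate 1, 14 without CON CT12 replicate 2 and 5 to 9 without each of the other 7. Sdhd, Atp5g1 and Ndufb6 were also called in SD liver, with peaks at CT2.52, CT4.52 and CT2.50. The 2 CON liver libraries of CT16 also had the lowest nuclear shares (0.542% and 0.557%) and a balance of long against short genes of 1.10 and 1.14 beside a CON median of 0.90, and its part was not tested.

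Atp5l ran the other way. It peaked at CT17.2 (amplitude 0.47, adjusted p = 0.032), with 3.94 and 4.75 CPM at CT16 and 1.86 and 2.07 at CT8 in CON, and with 2.04 and 5.68 at CT16 in SD it was not called there. In CON kidney Cox7a1 was called with a peak at CT2.03 (amplitude 0.44, adjusted p = 0.043), and its SD amplitude was 0.11. The call was lost in 7 of 12 fits with 1 CON library left out. The test of a rhythm difference between SD and CON called no member and no feature in any tissue (0.0%), with 0 members at an unadjusted p under 0.05 in forebrain, 2 in cerebellum, 1 in liver and 5 in kidney, so no change of rhythm could be shown.

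**Figure D5:**
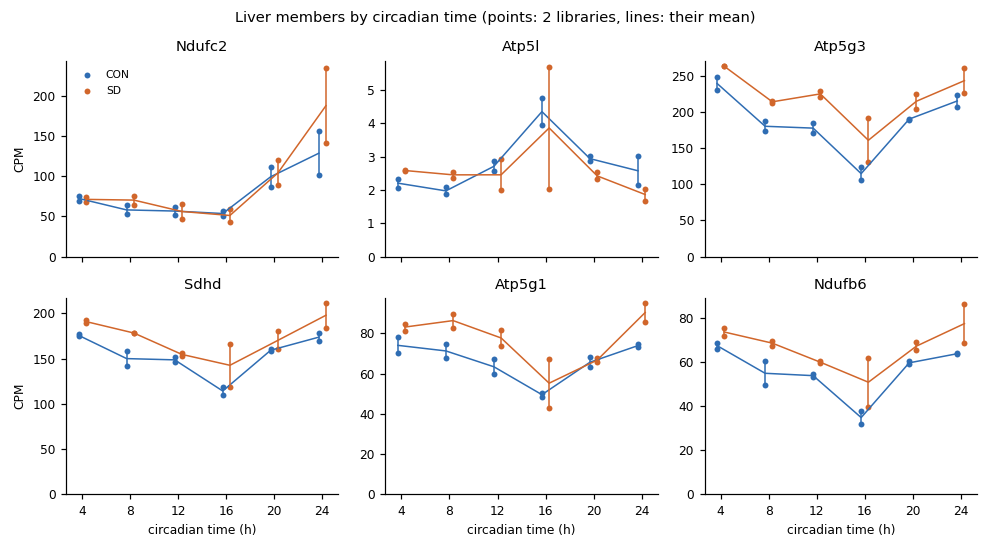
TMM-scaled CPM in liver by circadian time in h for Ndufc2, Atp5l, Atp5g3, Sdhd, Atp5g1 and Ndufb6, with 1 point per library, a vertical line between the 2 libraries of a group and lines through the means of CON and SD. Ndufc2 is highest at CT24 and the 4 genes Atp5g3, Sdhd, Atp5g1 and Ndufb6 are lowest at CT16, when Atp5l is highest in CON.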

How the data were processed

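Total RNA of 96 libraries was sequenced as pairs after ribosomal RNA depletion. The authors deposited raw counts per gene, made by trimming with Trim Galore, aligning to GRCm38 with HISAT2, keeping reads of high mapping quality with SAMtools and counting by strand with featureCounts, per the labels and the methods of the study. Genes with near-identical copies can lose reads in this filter. Symbols and exons came from GENCODE M21.

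Tests were run in edgeR 4.0.16 (R 4.3.3, limma 3.58.1) by its quasi-likelihood method, with TMM factors, genes kept by filterByExpr and Benjamini-Hochberg adjustment over all features at 0.05. The models were condition plus time, a mean per group with 6 contrasts, a 24 h cosine and sine, their interaction with condition, and tissue plus time. The SE is the log2 fold change over the root of F. JTK_CYCLE (24 h, 6 phases) was run on CPM in Python 3.11.15 with numpy 2.4.6 and pandas 2.3.3, figures were drawn with matplotlib 3.10.9, and fits were checked on simulated counts. Alternatives were library totals, scaling without mitochondrial genes, no filter, DESeq2 1.42.0, a covariate for long against short genes, a replicate block and leaving out libraries.

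Named members followed a rule: all mitochondrial members, the highest and lowest of each complex, the subunit families, the 10 largest called changes per tissue and direction, or the 3 smallest p where none was called. Members, lists and rules were chosen with earlier results of these data known. Groups came from the titles. No 2 replicates agreed within sampling noise (chi-square per degree of freedom 3.88 to 188). Depth was 24.8 to 58.5 M counts per library.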

Additional observations from a re-analysis of the deposited data

Results flagged for a closer look

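The SD effect differed between liver and another tissue, by the test of the difference itself in edgeR, for 13 results singled out here, all with the higher effect in liver. The differences are in log2 units with their SE and the p adjusted over all features. Against cerebellum they were 0.34 ± 0.069 for Ndufb9 (adjusted p = 0.0038), 0.27 ± 0.072 for Atp5g3 (adjusted p = 0.033) and 0.31 ± 0.087 for Sdhb (adjusted p = 0.046).

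Against forebrain they were 0.34 ± 0.075 for Uqcrfs1 (adjusted p = 0.0058), 0.33 ± 0.075 for Atp5g3 (adjusted p = 0.0065), 0.27 ± 0.062 for Ndufs7 (adjusted p = 0.0072), 0.26 ± 0.063 for Ndufb5 (adjusted p = 0.0095) and 0.27 ± 0.065 for Sdha (adjusted p = 0.0095). Against kidney they were 0.28 ± 0.060 for Ndufs1 (adjusted p = 0.0034), 0.34 ± 0.078 for Sdhb (adjusted p = 0.0066), 0.31 ± 0.071 for Atp5g3 (adjusted p = 0.0076), 0.25 ± 0.060 for Sdhc (adjusted p = 0.0089) and 0.30 ± 0.072 for Uqcrfs1 (adjusted p = 0.010). The liver libraries are common to the 3 comparisons, and Atp5g3, the main gene of the ATP synthase c subunit in these tissues, was among those named in each. Over all members the calls were 30 against forebrain, 3 against cerebellum and 18 against kidney. With library totals in place of TMM factors they were 0, 0 and 4, without a filter on low counts 8, 1 and 14, and with the replicate number as a block 23, 1 and 21. Of all features, in the same order, 6.9%, 2.47% and 6.49% were called in the main fit and 7.18%, 6.01% and 12.7% with library totals. These shares were 2.74%, 2.37% and 5.42% without the filter and 3.96%, 1.5% and 8.69% with the block. Without all libraries of 1 replicate number most member calls of the main fit were lost. Each group then held 1 library, and the share of all features called was not counted.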

How the results depend on the processing

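Counts of called members are given, and the share of all features called moved with the setting too. With library totals in place of TMM factors the liver SD effect had 4 in place of 34, the CON cosinor 4 in liver and 0 in kidney, the SD cosinor in kidney 2, the difference of SD effects 0 between liver and forebrain, 0 between liver and cerebellum and 4 between liver and kidney, and the tissue contrasts 30 (liver and kidney), 16 (forebrain and liver) and 36 (cerebellum and liver). Without a filter on low counts the joint test of 6 times had 2 in cerebellum, 11 in kidney and 10 in liver, the SD effect in kidney 1, the cosinor 22 in CON and 19 in SD liver and 2 and 7 in kidney, the rhythm difference 1 in kidney and 1 in liver, and the difference of SD effects 8 against forebrain and 1 against cerebellum. DESeq2 called 1 in forebrain, 6 in kidney and 14 in liver in the joint test, and 1 for the SD effect in kidney (3.25% of all features). In the joint test the share of all features called rose from 0.0%, 0.725% and 3.56% in cerebellum, kidney and liver to 9.55%, 7.49% and 8.82% without the filter, and with DESeq2 to 4.06% in forebrain, 3.22% in kidney and 10.2% in liver. Without the filter the cosinor called 12.4% and 12.7% of all features in CON and SD liver and 7.01% and 3.01% in kidney, and the differences of SD effects 2.74% against forebrain and 2.37% against cerebellum. The rhythm difference then had 0.105% in kidney and 1.26% in liver, and the SD effect in kidney 2.89%. With library totals 7.18%, 6.01% and 12.7% of all features had a different SD effect against forebrain, cerebellum and kidney. The SD effect in liver then had 20.9%, the CON cosinor 11.7% in liver and 3.75% in kidney, and the SD cosinor in kidney 2.71%. The covariate for long against short genes gave 1 in kidney (2.22% of all features). The causes were not tested.

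With the replicate number as a block the joint test had 1 in kidney and 0 in liver (0.655% and 2.25% of all features). The difference of SD effects had 1 against cerebellum and 23 and 21 against forebrain and kidney (1.5%, 3.96% and 8.69% of all features). Whether the numbers pair the libraries cannot be told from these values. Within a tissue 3 or 4 of 6 pairs had a correlation of deviations over 0.1 (from -0.478 to 0.572). The medians were 0.197 in forebrain, 0.0975 in cerebellum, 0.079 in liver and 0.187 in kidney.

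Leaving out 1 library gave 30 to 40 calls for the SD effect in liver and 0 in the other tissues. The joint test then had 1 library in a group, so its counts are not given here. Its calls moved most in cerebellum without CON CT8 replicate 2, when only the library that stood apart was left. No share of all features stands beside the counts in this paragraph. The cosinor ranged from 1 to 14 in CON liver, 1 to 7 in SD liver, 0 to 1 in CON kidney and 0 to 2 in SD kidney. Leaving out all libraries of 1 replicate number gave 0, 0 and 0 to 2 for the difference of SD effects against forebrain, cerebellum and kidney, 8 for liver and kidney and 14 to 16 for forebrain and cerebellum. It gave 36 to 43 for forebrain and liver, 55 for forebrain and kidney, 57 to 60 for cerebellum and liver and 63 for cerebellum and kidney. The fits that left out a chosen library had 0 at CT8 in cerebellum and 38 at CT16 in liver. No JTK_CYCLE alternative called a member. Of the alternatives for single named genes, 615 kept their side of the threshold, 72 lost the call and 0 reversed. With 2 libraries per group and time, changes at single times have little depth behind them, and 38 members were not measured.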

Other observations

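In forebrain, where no member was called, 19 of 75 members had an unadjusted p under 0.05 in the cosinor test of CON and 1 of 75 in that of SD, beside 4191 and 2356 of 23078 features (25.3% and 1.33% of the members, 18.2% and 10.2% of the features). With library totals in place of TMM factors the members were 7 (9.33%, features 17.3%) and 2 (2.67%, 10.2%), so that the CON share then lay below that of all features. The test of the difference between these rhythms had 0 members under that p. At CT20, where 2.28% of forebrain features were called, edgeR called no member for SD against CON. An unadjusted p under 0.05 was found for 13 of 75 members (17.3%), a share below the 21.5% of all features. The median over the members was -0.07 on the log2 scale.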
